A study of Danio rerio with 12 samples.

Results

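Control libraries 5 and 7, 2 of the 5 control retina libraries of this zebrafish series, carried transcripts of eggs. They are set here against the other 3, control libraries 3, 4 and 8. The sets were chosen by zp3.2, a gene for a protein of the egg envelope, which stood at 415 and 716 FPKM (fragments per kilobase of transcript per 1000000 fragments) in control libraries 5 and 7, against 2.46, 0.203 and 0 FPKM in control libraries 3, 4 and 8. The series holds 12 labelled samples, of which 11 had a named column, 6 of the MeHg lineage and 5 of the control lineage; control replicate 1 was not analysed here. MeHg is methylmercury. Fish of the EK strain were exposed as eggs for 24 h to 0.03 µM MeHg (the MeHg lineage) or to 0 µM MeHg (the control lineage), with ethanol as the vehicle for both, and the retina RNA came from their adult F3 descendants, a generation that met no added MeHg itself. No source used here gives the age, the sex or the number of fish or retinas behind an RNA sample. Each sample is labelled as a biological replicate.

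The name oocyte-bearing was set beside lists of oocyte and vitellogenin genes, as a description and not a test. The oocyte list includes zp3.2 itself. Of the 28 genes found from it, 24 were at least 20-fold higher in both control libraries 5 and 7 than in each of control libraries 3, 4 and 8. All 7 vitellogenin genes, which encode yolk precursors, passed the same mark. The oocyte list, with the values of zp3.2 counted in, summed to 2322 and 4615 FPKM in control libraries 5 and 7, against 10.6, 4.0 and 3.9 FPKM in control libraries 3, 4 and 8. The vitellogenin list summed to 549 and 531 FPKM in control libraries 5 and 7. In control libraries 3, 4 and 8 it summed to 2.33, 0.494 and 1.54 FPKM. Unlike the oocyte list, it was not higher in control library 7 than in control library 5. Whether the vitellogenin transcripts came from eggs was not tested. How egg transcripts came into retina samples was not tested. Genes that passed the 20-fold mark, 785 of 32674 genes in all, were left out of the differences, medians and gene counts of this split below. They stayed in the totals of each library and in the comparison of the lineages. They held 3.24% and 7.32% of the fragments of control libraries 5 and 7, against 0.0156%, 0.0050% and 0.0048% in control libraries 3, 4 and 8. Just inside the mark stood sass6 and tmem44, with a smallest ratio of 20.04 and 20.52, and just outside it ncaph and rtkn2a, both at 19.5. After this step 307 genes that were 4-fold to 20-fold higher in both libraries were still among those kept.

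Fragment numbers were implied by taking the most frequent nonzero value of each library in the companion table as a single fragment. Between 97.1% (MeHg library 4) and 98.6% (control library 8) of nonzero values were whole multiples of it. The implied numbers were 3255397 and 5663021 for control libraries 5 and 7, between 4354472 and 6749647 for the MeHg lineage, and 3470511, 4160985 and 2838157 for control libraries 3, 4 and 8. Mitochondrially encoded genes took 7.37% and 5.16% of fragments in control libraries 5 and 7, against 5.98%, 8.12% and 9.55% in control libraries 3, 4 and 8. The MeHg lineage had zp3.2 at 0.4996 FPKM or less in all 6 libraries. In the MeHg lineage rho, the rod opsin gene, was listed at 0 in all 6 libraries although other rod genes stood at high levels there, so that its values are given but carry no fold change.

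The vertebrate retina is a layered tissue. Rods serve dim light and cones serve colour vision in bright light; both pass their signal to bipolar cells, horizontal and amacrine cells shape it, and ganglion cells send it along the optic nerve. Muller glia span the layers and recycle transmitter and visual pigment chromophore, and the pigment epithelium behind the photoreceptors regenerates the chromophore and takes up shed outer segments. Muscle, skin and sclera lie around the eye and are not part of the retina.

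Because the sets were split on these same expression values, the differences between them are a description and were not tested. For each gene the difference is the mean log2(FPKM + 1) of control libraries 5 and 7 minus that of control libraries 3, 4 and 8, a scale that understates changes of genes near 0. A gene is called lower without overlap when both of control libraries 5 and 7 lay below all of control libraries 3, 4 and 8, and higher without overlap when both lay above. Of 19930 genes that reached 0.5 FPKM on average over the 11 libraries, 27.9% were lower and 15.9% were higher without overlap, and 3.29% (656 genes) were lower and 6.34% (1264 genes) were higher without overlap by at least 2-fold. That average includes control libraries 5 and 7, so a gene high only there can pass the filter through them. This raises the shares of higher genes. The median difference over all of them was -0.17. Summed FPKM, with the left-out genes counted in, were 671942 and 566740 in control libraries 5 and 7, against 860441, 781779 and 770955 in control libraries 3, 4 and 8. Differences are therefore also given relative to that median, which adds 0.17 to each list's value. With FPKM rescaled to a total of 1000000 over the genes kept, the same count became 136 lower and 2537 higher, and with differences centred on the median of all genes 292 lower and 1614 higher. With the filter raised to a mean of 5 FPKM, it became 503 lower and 504 higher.

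Genes of every retinal cell type listed had a negative median difference, and rods the most negative. Over the 206 retina genes of 10 lists the median was -0.72, 193 of the 206 differences were below 0, and 134 genes were lower without overlap against 4 that were higher. By at least 2-fold, 32 were lower and 2 were higher without overlap. Relative to the median of all genes kept, the retina median was -0.56, and with rescaled FPKM it was -0.30. The counts depended more on the scaling: with rescaled FPKM 68 retina genes were lower and 10 higher without overlap, against 9.54% lower and 30.1% higher over all genes kept, and by at least 2-fold 2 were lower and 5 higher. In bulk tissue, fewer cells of a type and less RNA per cell cannot be told apart.

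**Figure D1:**
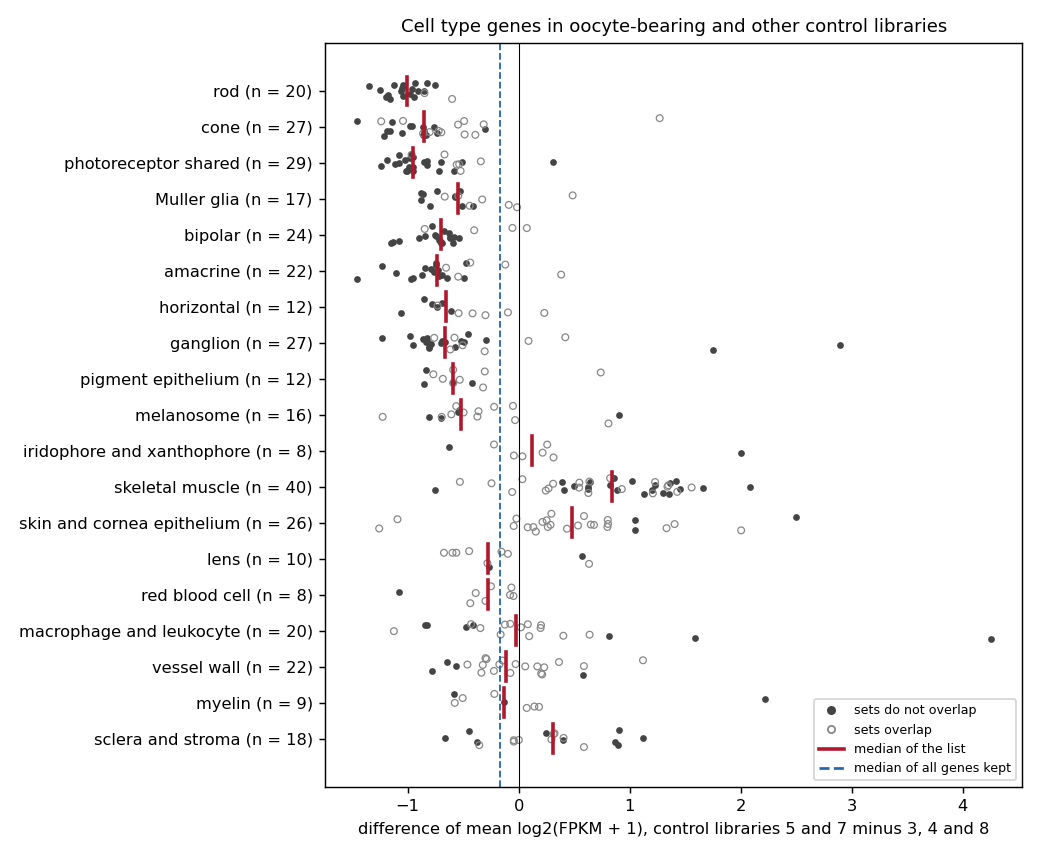
Differences of mean log2(FPKM + 1), control libraries 5 and 7 minus control libraries 3, 4 and 8, for every gene kept in each list (1 point a gene; filled where the sets do not overlap, open where they do; red bars, list medians; dashed line, the median of all genes kept, -0.17). Rod genes lie around -1.01 and skeletal muscle genes around 0.84.

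Rod genes gave the most uniform picture. Of 21 rod genes found, 20 passed the filter on low values, and reep6 did not. All 20 differences were below 0, 18 were lower without overlap and 10 of these by at least 2-fold. The list's median difference was -1.01, or -0.85 relative to the median of all genes kept, and it ranged from -1.34 to -0.60 between genes. In every scaling tried the median stayed below 0, at -0.55 with rescaled FPKM, and at least 14 of the 20 genes were lower without overlap. The 10 genes lower by at least 2-fold became 4 with centred differences, 3 in the companion table with TMM factors and none with rescaled FPKM.

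The rod visual pigment gene rho (ENSDARG00000002193) had 8682 and 6346 FPKM in control libraries 5 and 7, against 20297, 19675 and 13852 FPKM in control libraries 3, 4 and 8. The difference was -1.25. For gnat1, the alpha subunit of rod transducin that couples rhodopsin to the light response, the values were 2212 and 1269 FPKM in control libraries 5 and 7, against 3859.8, 3536 and 3019.7 FPKM in control libraries 3, 4 and 8 (-1.04). Control library 7 was the lowest of the 5 for both genes and control library 5 the second lowest, so that the sets did not overlap. The gene saga, for an arrestin that switches off rhodopsin, had the largest rod difference, -1.34. It stood at 377 and 199 FPKM in control libraries 5 and 7, against 891, 802 and 473 FPKM in control libraries 3, 4 and 8. The channel subunit cnga1, which closes in light, had 108 and 55.46 FPKM in control libraries 5 and 7, against 208, 188 and 144 FPKM in control libraries 3, 4 and 8 (-1.19).

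Other steps of the rod cascade, chosen after their values were seen, were lower without overlap as well. The second arrestin gene sagb had 1016 and 699 FPKM in control libraries 5 and 7, against 2106, 2310.2 and 1425 FPKM in control libraries 3, 4 and 8 (-1.18). The catalytic phosphodiesterase subunit pde6a had 321 and 219.8 FPKM in control libraries 5 and 7, against 714, 609.9 and 396 FPKM in control libraries 3, 4 and 8 (-1.06). The disc rim gene rom1b had 458 and 293 FPKM in control libraries 5 and 7, against 916, 866 and 687 FPKM in control libraries 3, 4 and 8 (-1.16). The transducin gamma subunit gngt1 was lower by less than 2-fold, with 2808 and 1919 FPKM in control libraries 5 and 7, against 4189, 3716 and 4475 FPKM in control libraries 3, 4 and 8 (-0.83). The 2 rod genes whose sets overlapped were si:dkey-44k1.5, which the reference lists as cngb1b, and nr2e3, a nuclear receptor of photoreceptor fate. For nr2e3, control library 8 lay below both, with 21.0 and 19.5 FPKM in control libraries 5 and 7, against 29.7, 55.6 and 18.2 FPKM in control libraries 3, 4 and 8. All 21 rod genes together took 2.92% and 2.24% of fragments in control libraries 5 and 7, against 4.96%, 4.75% and 3.77% in control libraries 3, 4 and 8.

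**Figure D2:**
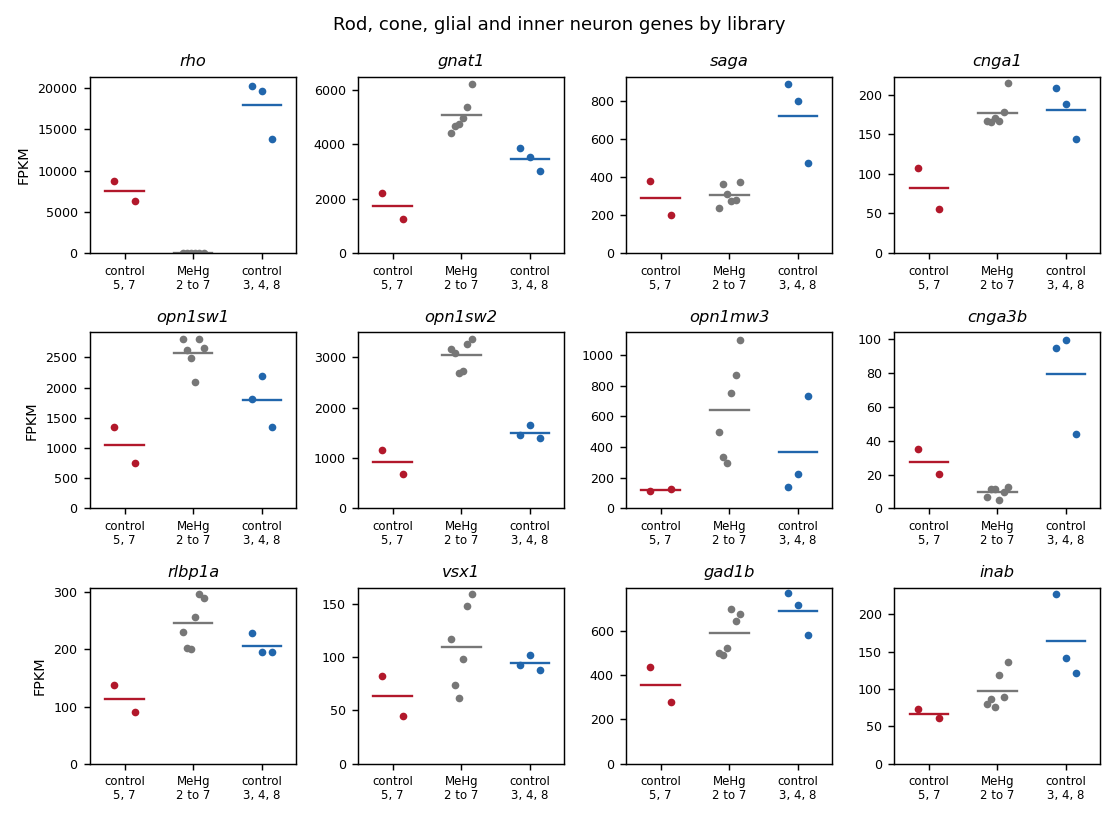
FPKM of 12 rod, cone, glial and inner neuron genes by library (1 point a library; bars, means of control libraries 5 and 7, the 6 MeHg libraries, and control libraries 3, 4 and 8). Both red points lie below all blue points for each gene but opn1sw1, whose highest red point (1350.0 FPKM) reaches the lowest blue one (1349 FPKM).

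Cone genes were lower too, with more spread among them. All 27 cone genes found passed the filter, 15 were lower without overlap and 6 of these by at least 2-fold, and 12 overlapped. The median was -0.86, or -0.69 relative to the median of all genes kept and -0.40 with rescaled FPKM, which left 8 lower and 1 higher without overlap. The opsins differed among themselves. Zebrafish have several tandem opsin genes, whose near-identical copies may share fragments, so that single copies are uncertain.

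The ultraviolet opsin opn1sw1 had 1350.0 and 747 FPKM in control libraries 5 and 7, against 1814, 2198 and 1349 FPKM in control libraries 3, 4 and 8 (-0.80), and control library 5 overlapped control library 8. The blue opsin opn1sw2 had 1165 and 693 FPKM in control libraries 5 and 7, against 1457, 1651 and 1397 FPKM in control libraries 3, 4 and 8 (-0.74), without overlap. The green opsin copy opn1mw3 had 114 and 129 FPKM in control libraries 5 and 7, against 139.7, 222 and 732 FPKM in control libraries 3, 4 and 8 (-1.21), and its size rested on control library 8, which stood far above the other 4. Its neighbour copy opn1mw2, chosen after its values were seen, ran the other way at 1.27, with 332 and 73.5 FPKM in control libraries 5 and 7, against 109.8, 89.2 and 26.9 FPKM in control libraries 3, 4 and 8. Neither red opsin was separated: opn1lw1 had 417 and 450.2 FPKM in control libraries 5 and 7, against 587, 424 and 736 FPKM in control libraries 3, 4 and 8 (-0.39). For opn1lw2 the values were 1668 and 777 FPKM in control libraries 5 and 7, against 1193, 1199 and 1989 FPKM in control libraries 3, 4 and 8 (-0.32), and control library 5 lay above control libraries 3 and 4.

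Of the 20 cone genes outside the opsins 12 were lower without overlap and 8 overlapped, and of the 7 opsins 3 were lower and 4 overlapped. The cone channel subunit cnga3b had the most negative value of the list, -1.46, with 34.9 and 20.3 FPKM in control libraries 5 and 7, against 95.2, 99.5 and 44.3 FPKM in control libraries 3, 4 and 8. The cone opsin kinase grk7a had 241 and 167 FPKM in control libraries 5 and 7, against 631, 554 and 272 FPKM in control libraries 3, 4 and 8 (-1.18). For both genes control library 8 stood nearer to control library 5 than to control libraries 3 and 4. Cone arrestin arr3a, chosen after its values were seen, had 4132 and 2345 FPKM in control libraries 5 and 7, against 8133, 8237 and 5009 FPKM in control libraries 3, 4 and 8 (-1.16). The cone transducin gnat2, likewise, had 1988 and 1168 FPKM in control libraries 5 and 7, against 2756, 3155 and 2458 FPKM in control libraries 3, 4 and 8 (-0.86), without overlap but by less than 2-fold.

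Genes used by rods and cones alike lay between the rod and cone lists. Of 30 found, 29 passed the filter; 22 were lower without overlap, 8 of these by at least 2-fold, and 1, unc119.1, was higher without overlap at 0.31. The median was -0.95, or -0.79 relative to the median of all genes kept and -0.50 with rescaled FPKM, which left 12 lower without overlap and none by 2-fold. The homeobox gene crx, which turns on photoreceptor genes, had 173 and 111 FPKM in control libraries 5 and 7, against 268, 327 and 256 FPKM in control libraries 3, 4 and 8 (-1.02). Its relative otx5 had 97.6 and 61.5 FPKM in control libraries 5 and 7, against 185, 158 and 132 FPKM in control libraries 3, 4 and 8 (-1.01). The matrix proteoglycan gene impg2a had the most negative value, -1.24, with 7.67 and 6.21 FPKM in control libraries 5 and 7, against 20.5, 22.9 and 11.7 FPKM in control libraries 3, 4 and 8. The outer segment guanylate cyclase gucy2f had 56.1 and 41.4 FPKM in control libraries 5 and 7, against 117, 126 and 93.0 FPKM in control libraries 3, 4 and 8 (-1.19), and prom1a, needed to shape outer segment discs, had 36.5 and 26.4 FPKM in control libraries 5 and 7, against 73.3, 85.6 and 51.4 FPKM in control libraries 3, 4 and 8 (-1.12). In each of these 5 genes control library 7 was the lowest of the 5 libraries. The proneural gene neurod1 and the cyclase activator guca1a, chosen after their values were seen, overlapped between the sets; neurod1 had 74.5 and 48.5 FPKM in control libraries 5 and 7, against 52.89, 105 and 159.9 FPKM in control libraries 3, 4 and 8.

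Muller glia genes had a less negative median than photoreceptor genes over control libraries 5 and 7 together, though in control library 5 alone their level, -0.49, was below that of cone genes, -0.45. Of 21 found, 17 passed the filter and slc1a3b, her4.1 and both her4.2 entries did not. In all, 10 of the 17 were lower without overlap, none by 2-fold, and none was higher without overlap. The median was -0.54, or -0.38 relative to the median of all genes kept, and it shrank to -0.11 with rescaled FPKM. That scaling left 2 genes lower without overlap (11.8%, against 9.54% over all genes kept) and 1 higher (5.88%, against 30.1%). The retinaldehyde-binding gene rlbp1a had 138 and 90.1 FPKM in control libraries 5 and 7, against 229, 195 and 196 FPKM in control libraries 3, 4 and 8 (-0.88). The glutamate transporter slc1a2a had 86.2 and 52.8 FPKM in control libraries 5 and 7, against 161, 115 and 88.1 FPKM in control libraries 3, 4 and 8 (-0.80), and control libraries 5 and 8 were nearly level. The filament gene gfap, chosen after its values were seen, had 17.3 and 14.1 FPKM in control libraries 5 and 7, against 25.2, 31.9 and 23.3 FPKM in control libraries 3, 4 and 8 (-0.73).

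Bipolar genes were lower in most of the list as deposited, and in fewer after rescaling. All 24 found passed the filter, 20 were lower without overlap, 3 of these by at least 2-fold, and the median was -0.70 (-0.54 relative to the median of all genes kept, -0.27 with rescaled FPKM). With rescaled FPKM 8 of the 24 were lower and 1 was higher without overlap, and none differed by 2-fold. For the homeobox gene vsx1, which acts in bipolar cell fate, the values were 82.0 and 44.2 FPKM in control libraries 5 and 7, against 92.3, 102 and 88.1 FPKM in control libraries 3, 4 and 8 (-0.63). The 3 genes lower by at least 2-fold were lrit3a, cabp2a and trpm1a. The first and the third act in the ON pathway, by which bipolar cells answer to light increments. The synaptic protein gene lrit3a had 32.2 and 20.4 FPKM in control libraries 5 and 7, against 71.3, 65.2 and 42.1 FPKM in control libraries 3, 4 and 8 (-1.15). The channel gene trpm1a had 24.1 and 28.3 FPKM in control libraries 5 and 7, against 66.2, 72.1 and 37.0 FPKM in control libraries 3, 4 and 8 (-1.08), with control library 5 below control library 7. The calcium sensor cabp2a had 127 and 45.6 FPKM in control libraries 5 and 7, against 186, 192 and 134 FPKM in control libraries 3, 4 and 8 (-1.14).

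Amacrine genes gave nearly the same median, -0.73 (-0.57 relative to the median of all genes kept, -0.29 with rescaled FPKM). All 22 passed the filter, 17 were lower without overlap and 3 of these by at least 2-fold; with rescaled FPKM 7 were lower, 1 of them by 2-fold, and 1 was higher. The GABA-synthesising enzyme gene gad1b had 435 and 279 FPKM in control libraries 5 and 7, against 771, 717 and 581 FPKM in control libraries 3, 4 and 8 (-0.97). Its copy gad1a was low everywhere and overlapped, with 0.846 and 1.69 FPKM in control libraries 5 and 7, against 5.05, 2.57 and 0.589 FPKM in control libraries 3, 4 and 8. The choline transporter slc5a7a, of cholinergic amacrine cells, had 3.17 and 1.94 FPKM in control libraries 5 and 7, against 8.35, 8.52 and 8.89 FPKM in control libraries 3, 4 and 8 (-1.45), and control libraries 3, 4 and 8 lay close together. The calretinin gene calb2a had 60.2 and 38.8 FPKM in control libraries 5 and 7, against 128, 133 and 88.8 FPKM in control libraries 3, 4 and 8 (-1.23). The somatostatin gene sst1.1 had 2.597 and 3.12 FPKM in control libraries 5 and 7, against 6.89, 5.84 and 9.49 FPKM in control libraries 3, 4 and 8 (-1.10), with control library 5 the lowest. Dopaminergic th, chosen after its values were seen, overlapped because control library 8 was low, with 4.74 and 2.77 FPKM in control libraries 5 and 7, against 8.86, 8.66 and 3.12 FPKM in control libraries 3, 4 and 8.

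Horizontal cell genes were fewer and lower in level. Of 13 found, 12 passed the filter; 6 were lower without overlap, 1 of these by at least 2-fold, and the other 6 overlapped. The median was -0.65 (-0.49 relative to the median of all genes kept, -0.22 with rescaled FPKM). That 1 gene was cx52.6, for a connexin of the gap junctions that couple horizontal cells, with 28.4 and 16.2 FPKM in control libraries 5 and 7, against 68.7, 43.6 and 32.4 FPKM in control libraries 3, 4 and 8 (-1.06). The transcription factor lhx1a had 1.57 and 1.40 FPKM in control libraries 5 and 7, against 1.06, 1.26 and 5.13 FPKM in control libraries 3, 4 and 8, and control library 8 alone was high. Its difference of -0.30 was 0.11 in the companion table and 0.20 without control library 8. The factor onecut1 had 0.79996 and 0.322 FPKM in control libraries 5 and 7, against 0.527, 0.605 and 0.831 FPKM in control libraries 3, 4 and 8, and its difference of -0.10 was 0.07 with rescaled FPKM.

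Most ganglion cell genes were lower, with counts by at least 2-fold near the shares over all genes kept. All 27 found passed the filter, and 7 overlapped. In all, 18 (66.7%) were lower without overlap, against 27.9% over all genes kept, and 1 (3.70%) by at least 2-fold, against 3.29%. Another 2 (7.41%) were higher without overlap, against 15.9%, both by at least 2-fold, against 6.34%. With rescaled FPKM 11 (40.7%) were lower and 3 (11.1%) higher, against 9.54% and 30.1% over all genes kept. The median was -0.67 (-0.50 relative to the median of all genes kept, -0.32 with rescaled FPKM). The RNA-binding gene rbpms2a had 61.3 and 59.1 FPKM in control libraries 5 and 7, against 100.2, 88.5 and 74.1 FPKM in control libraries 3, 4 and 8 (-0.52), whereas its copy rbpms2b had 129 and 176 FPKM in control libraries 5 and 7, against 132, 93.6 and 115 FPKM in control libraries 3, 4 and 8 (0.42) and overlapped. The filament gene inab, for internexin, had 73.0 and 60.7 FPKM in control libraries 5 and 7, against 227, 142 and 122 FPKM in control libraries 3, 4 and 8 (-1.23). The 2 higher genes were thy1 and eomesa. The surface protein gene thy1 had 175 and 392 FPKM in control libraries 5 and 7, against 29.2, 21.8 and 63.2 FPKM in control libraries 3, 4 and 8 (2.89). The T-box gene eomesa had 3.89 and 9.94 FPKM in control libraries 5 and 7, against 1.32, 1.48 and 0.782 FPKM in control libraries 3, 4 and 8 (1.75). Control library 7, lowest of the 5 for most ganglion genes, was the highest for both of these, as it was for the sum of the oocyte list. Whether thy1 and eomesa belong here to ganglion cells or to the egg transcripts was not tested.

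Control libraries 5 and 7 differed from each other as well. Control library 7 lay below control library 5, and control library 5 below control libraries 3, 4 and 8, in 57.8% of the 206 retina genes and in 21.6% of all genes kept. By list this order held for 18 of 20 rod, 13 of 27 cone, 22 of 29 shared photoreceptor, 8 of 17 Muller glia, 18 of 24 bipolar, 16 of 22 amacrine, 5 of 12 horizontal and 16 of 27 ganglion genes, but for 1 of 12 pigment epithelium and 2 of 16 melanosome genes. Over the 206 genes the median difference from the mean of control libraries 3, 4 and 8 was -0.49 in control library 5 and -0.997 in control library 7. For rods it was -0.64 in control library 5 and -1.34 in control library 7, and for Muller glia -0.49 in control library 5 and -0.59 in control library 7. The share of fragments from the left-out genes, given above, was 3.24% in control library 5 and 7.32% in control library 7; its part in these differences was not tested.

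**Figure D3:**
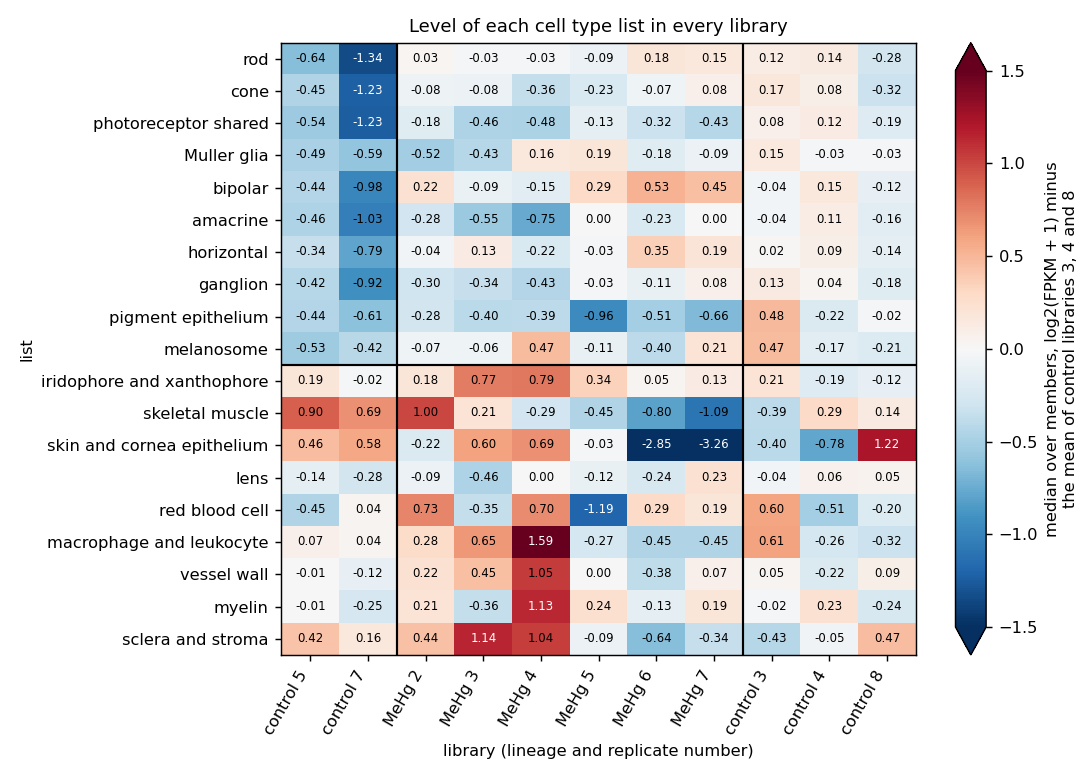
Median over the genes of each list of log2(FPKM + 1) minus the mean of control libraries 3, 4 and 8, in each of 11 libraries (columns; colour scale ends at 1.5 in each direction; lists of the retina above the horizontal line). Control library 7 has the lowest level of all 11 libraries in the rod (-1.34), cone (-1.23) and bipolar (-0.98) rows, and the skin row is highest in control library 8 (1.22).

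The balance between cell types was compared by subtracting list levels within a library. This removes a scaling common to all genes of a library only in part. On the log2(FPKM + 1) scale such a scaling moves genes near 0 less than genes at high levels. Its part in the values below was not tested. Rod minus ganglion was -0.22 and -0.43 in control libraries 5 and 7, against -0.02, 0.10 and -0.10 in control libraries 3, 4 and 8. Rod minus amacrine was -0.18 and -0.32 in control libraries 5 and 7, against 0.15, 0.02 and -0.12 in control libraries 3, 4 and 8. Rod minus bipolar was -0.20 and -0.37 in control libraries 5 and 7, against 0.15, -0.02 and -0.16 in control libraries 3, 4 and 8. Rod minus cone was -0.19 and -0.12 in control libraries 5 and 7, against -0.06, 0.05 and 0.04 in control libraries 3, 4 and 8. For these 4 pairs both of control libraries 5 and 7 lay below all of control libraries 3, 4 and 8. Rod minus Muller glia overlapped, at -0.15 and -0.76 in control libraries 5 and 7, against -0.04, 0.17 and -0.25 in control libraries 3, 4 and 8. Cone minus bipolar also overlapped, at -0.0049 and -0.25 in control libraries 5 and 7, against 0.21, -0.07 and -0.20 in control libraries 3, 4 and 8. Rod minus pigment epithelium overlapped too, at -0.19 and -0.73 in control libraries 5 and 7, against -0.37, 0.36 and -0.26 in control libraries 3, 4 and 8. Low values of rod minus bipolar were also found in the MeHg lineage, where MeHg libraries 5, 6 and 7 stood at -0.38, -0.35 and -0.30.

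Pigment genes were lower on median, with counts of lower genes near the share over all genes kept. Of 12 pigment epithelium genes, all past the filter, 4 (33.3%) were lower without overlap, against 27.9% over all genes kept, and none by 2-fold. With rescaled FPKM 1 (8.33%) was lower, against 9.54% over all genes kept. The median of this list was -0.59 (-0.43 relative to the median of all genes kept, -0.23 with rescaled FPKM). The isomerase gene rpe65a, which regenerates the visual chromophore, had 378 and 293 FPKM in control libraries 5 and 7, against 1089.9, 291 and 484 FPKM in control libraries 3, 4 and 8, and control library 4 lay level with control library 7. The opsin-like gene rgra had 86.4 and 48.3 FPKM in control libraries 5 and 7, against 186, 87.7 and 94.9 FPKM in control libraries 3, 4 and 8 (-0.83), with control library 5 just below control library 4. Of 16 melanosome genes, 4 were lower and 1, rab32a, was higher without overlap, against 27.9% lower and 15.9% higher over all genes kept, and the median was -0.52. With rescaled FPKM 2 (12.5%) were lower and 2 (12.5%) higher, against 9.54% lower and 30.1% higher over all genes kept. The median was -0.20 without control library 3, -0.35 relative to the median of all genes kept and -0.13 with rescaled FPKM. The melanin enzyme gene dct had 35.5 and 51.4 FPKM in control libraries 5 and 7, against 124, 47.4 and 43.7 FPKM in control libraries 3, 4 and 8, and tyr had 1.87 and 2.06 FPKM in control libraries 5 and 7, against 5.34, 2.88 and 1.97 FPKM in control libraries 3, 4 and 8; both overlapped. The 8 iridophore and xanthophore genes kept had a median of 0.12. Of them 1 (12.5%), slc2a15b, was higher without overlap and by at least 2-fold (2.005), and 1 (12.5%) was lower without overlap. The shares without overlap over all genes kept were 15.9% higher and 27.9% lower.

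Skeletal muscle genes were higher in the oocyte-bearing libraries. Of 52 found, 40 passed the filter and 12 were too low. Of the 40, 20 (50%) were higher without overlap, against 15.9% over all genes kept. By at least 2-fold, 11 of the 40 were higher without overlap, against 6.34% over all genes kept. Of the others, 19 overlapped and 1, tmod4, was lower without overlap, against 27.9% lower over all genes kept. The median was 0.84, or 1.01 relative to the median of all genes kept and 1.28 with rescaled FPKM. The regulatory myosin light chain gene mylpfa had 131 and 76.5 FPKM in control libraries 5 and 7, against 13.7, 56.5 and 37.5 FPKM in control libraries 3, 4 and 8 (1.66). The creatine kinase gene ckmb had 157 and 78.6 FPKM in control libraries 5 and 7, against 19.6, 73.1 and 43.9 FPKM in control libraries 3, 4 and 8 (1.46). The parvalbumin gene pvalb3 had 21.4 and 8.64 FPKM in control libraries 5 and 7, against 3.47, 2.94 and 1.36 FPKM in control libraries 3, 4 and 8 (2.09). In all 3 control library 5 was the highest of the 5, and control library 3 was the lowest for mylpfa and ckmb. The actin genes were acta1b, with 30.3 and 19.2 FPKM in control libraries 5 and 7, against 5.63, 12.8 and 9.21 FPKM in control libraries 3, 4 and 8 (1.36), and acta1a, which stayed below 1 FPKM in all 5 libraries. The myoglobin gene mb, chosen after its values were seen, ran the other way, with 148 and 145 FPKM in control libraries 5 and 7, against 263, 143 and 255 FPKM in control libraries 3, 4 and 8 (-0.53). The list took 0.241% and 0.187% of fragments in control libraries 5 and 7, against 0.0559%, 0.102% and 0.106% in control libraries 3, 4 and 8. Muscle levels spanned a wider range over the MeHg lineage than over the control libraries: MeHg library 2, at 1.003, stood above control library 5, at 0.90, and MeHg library 7, at -1.09, stood lowest of all 11.

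**Figure D4:**
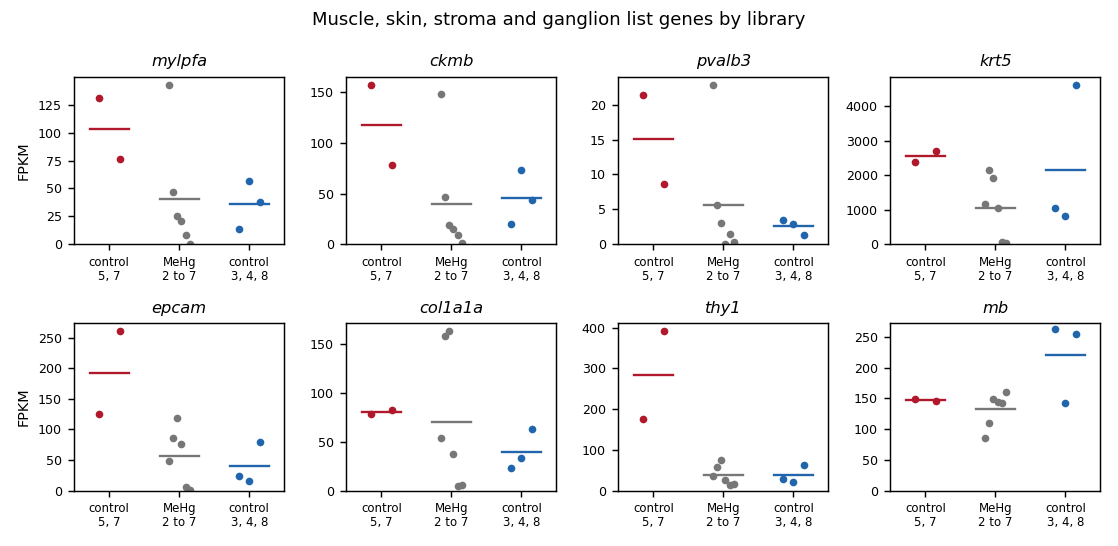
FPKM of 8 muscle (mylpfa, ckmb, pvalb3, mb), skin (krt5, epcam), stroma (col1a1a) and ganglion list (thy1) genes by library, drawn as in the plot of retina genes. Both red points lie above all blue points for mylpfa, ckmb, pvalb3, epcam, col1a1a and thy1, and overlap them for krt5 and mb.

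Skin and cornea genes were spread differently, since control library 8 was the highest for most of them. Of 33 found, 2 were left out by the 20-fold rule and 26 passed the filter, of which 23 overlapped. The other 3 (11.5%) were higher without overlap, against 15.9% over all genes kept. All 3 were higher by at least 2-fold, against 6.34% over all genes kept. The median was 0.48 (0.65 relative to the median of all genes kept, 0.95 with rescaled FPKM). The list level was 0.46 and 0.58 in control libraries 5 and 7, against -0.40, -0.78 and 1.22 in control libraries 3, 4 and 8. The keratin gene krt5 had 2396 and 2706 FPKM in control libraries 5 and 7, against 1057, 824 and 4614 FPKM in control libraries 3, 4 and 8, and krt4 had 247 and 154 FPKM in control libraries 5 and 7, against 132, 93.7 and 239.8 FPKM in control libraries 3, 4 and 8. The 3 separated genes were epcam, evpla and krt1-19d. For the epithelial adhesion gene epcam the values were 125 and 259.9 FPKM in control libraries 5 and 7, against 23.1, 16.3 and 78.8 FPKM in control libraries 3, 4 and 8 (2.497). For evpla, of the desmosome-linked envelope, they were 6.94 and 6.86 FPKM in control libraries 5 and 7, against 2.76, 1.92 and 4.07 FPKM in control libraries 3, 4 and 8 (1.05), and for the keratin gene krt1-19d 34.2 and 33.2 FPKM in control libraries 5 and 7, against 10.9, 12.2 and 29.1 FPKM in control libraries 3, 4 and 8 (1.05). Control library 7 was the highest of the 5 for epcam, as it was for the sum of the oocyte list. Whether epcam belongs here to skin or to the egg transcripts was not tested. MeHg libraries 6 and 7 had the lowest skin levels of all 11, -2.85 and -3.26.

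Other tissues around the retina had smaller median differences than muscle and skin. Of 18 sclera and stroma genes kept, 6 (33.3%) were higher without overlap, against 15.9% over all genes kept. Another 3 (16.7%) were lower, against 27.9%. The median was 0.30 (0.47 relative to the median of all genes kept, 0.75 with rescaled FPKM). The 3 lower calls were absent with rescaled FPKM, which gave 8 higher (44.4%, against 30.1% over all genes kept). They were also absent in the companion table with TMM factors, which gave 6 higher (33.3%, against 20.4% over all genes kept). The collagen gene col1a1a had 78.3 and 82.2 FPKM in control libraries 5 and 7, against 23.0, 33.0 and 63.4 FPKM in control libraries 3, 4 and 8 (1.12), and its copy col1a1b had 57.4 and 73.5 FPKM in control libraries 5 and 7, against 22.6, 33.3 and 53.5 FPKM in control libraries 3, 4 and 8 (0.90). Red blood cell genes had a median of -0.27, which became 0.18 with rescaled FPKM. The beta globin gene ba1 had 377 and 737 FPKM in control libraries 5 and 7, against 1318, 365 and 569 FPKM in control libraries 3, 4 and 8, and the alpha globin gene si:ch211-5k11.6 had 8.99 and 31.5 FPKM in control libraries 5 and 7, against 51.4, 14.8 and 10.8 FPKM in control libraries 3, 4 and 8. Carbonic anhydrase cahz was the only 1 of the 8 (12.5%) lower without overlap, against 27.9% over all genes kept. It had 222 and 124 FPKM in control libraries 5 and 7, against 372, 389 and 299.6 FPKM in control libraries 3, 4 and 8 (-1.08). Lens genes were near the floor: 49 of 60 found did not reach the filter, and crybb2 and crybb3 stayed at or below 2.87 FPKM in all 5 libraries. Medians of the vessel wall (-0.11), myelin (-0.13) and leukocyte (-0.03) lists lay close to that of all genes, and all 3 were above 0 with rescaled FPKM. Within them ctssb.1, a cathepsin gene, stood out after its values were seen, with 95.5 and 192 FPKM in control libraries 5 and 7, against 11.5, 3.38 and 5.66 FPKM in control libraries 3, 4 and 8 (4.25).

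Among lists not tied to a cell type, the cell cycle list stood apart in every scaling and the others in fewer genes after rescaling. Of 26 cell cycle genes found, 7 had passed the 20-fold mark and were left out. The 18 kept had a median of 2.80, and 17 were higher without overlap. Their level was 2.44 in control library 5 and 3.18 in control library 7, which also had the larger share of left-out genes. Whether the kept cell cycle genes come from the retina or from the egg transcripts was not tested. The 13 mitochondrially encoded genes had a median of -0.66, and 5 were lower without overlap. Of 19 immediate early genes, induced by stimulation or handling, 8 were lower and none was higher without overlap (median -0.74). Of 36 circadian clock genes, 14 were lower and 1, arntl2, was higher without overlap (median -0.51). Relative to the median of all genes kept these medians were 2.96, -0.49, -0.57 and -0.34. The lower counts stand beside 27.9% lower, and the higher counts beside 15.9% higher, over all genes kept. With rescaled FPKM 17 of 18 cell cycle genes were still higher, whereas none of the mitochondrially encoded genes was lower, 3 immediate early genes were lower and 1 was higher, and 3 clock genes were lower and 4 higher. That scaling gave 9.54% lower and 30.1% higher over all genes kept. The part of these lists in the retina differences was not tested.

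Over all genes kept, those furthest above were mostly genes of cell division. The 8 largest differences with a mean of at least 10 FPKM in the higher set belonged to plk1, aurkb, gbgt1l4, mad2l1, mkrn4, cdca7a, cdca8 and kif23. They ran from 4.31 for kif23 to 4.76 for plk1. The mitotic kinase gene plk1 had 46.9 and 104 FPKM in control libraries 5 and 7, against 1.18, 3.35 and 0.888 FPKM in control libraries 3, 4 and 8. The glycosyltransferase-like gene gbgt1l4 had 30.5 and 105 FPKM in control libraries 5 and 7, against 0, 1.04 and 3.91 FPKM in control libraries 3, 4 and 8. All 8 were highest in control library 7, which also had the larger share of left-out genes. Whether these 8 belong to the egg transcripts was not tested. The 8 furthest below were 5S_rRNA, lypla2, ankrd33ab, ccl19a.2, rgs7b, ankrd33bb, pcp4b and pfkfb4b. The multicopy gene 5S_rRNA had 0 and 52.8 FPKM in control libraries 5 and 7, against 261, 83.9 and 144 FPKM in control libraries 3, 4 and 8, a spread within each set that makes its difference of -4.33 uncertain. The thioesterase gene lypla2 had 33.4 and 25.6 FPKM in control libraries 5 and 7, against 112, 139 and 106 FPKM in control libraries 3, 4 and 8 (-1.98), with both sets narrow. The genes ankrd33ab and ankrd33bb are relatives of a mammalian gene expressed in photoreceptors. The first had 24.6 and 11.1 FPKM in control libraries 5 and 7, against 89.0, 96.1 and 32.9 FPKM in control libraries 3, 4 and 8 (-1.92), and the second had 24.6 and 4.63 FPKM in control libraries 5 and 7, against 47.6, 39.5 and 34.3 FPKM in control libraries 3, 4 and 8 (-1.77). For the chemokine gene ccl19a.2 (-1.83) control library 8 was far above the rest, with 1.303 and 2.595 FPKM in control libraries 5 and 7, against 5.85, 4.79 and 25.7 FPKM in control libraries 3, 4 and 8. The G protein regulator rgs7b had 3.92 and 1.47 FPKM in control libraries 5 and 7, against 13.1, 8.16 and 12.9 FPKM in control libraries 3, 4 and 8 (-1.80). The calmodulin-binding gene pcp4b (-1.71) and the glycolysis regulator pfkfb4b (-1.71) showed control library 7 lowest, at 25.7 and 9.62 FPKM.

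The split bears on the labelled comparison of the study, MeHg lineage against control lineage. That comparison was tested with limma on log2(FPKM + 1), two-sided, with Benjamini-Hochberg adjustment over 20320 genes. These include 390 genes that passed the 20-fold mark, so the shares over all genes below count them too. The pair was chosen by zp3.2 within the control lineage only, and the fit without control libraries 5 and 7 drops that pair. Leaving out a pair in which a gene is low raises its control mean. Calls gained or lost in that fit therefore follow in part from the choice and describe how much the pair weighs. With all 11 libraries 5.47% of genes were called higher in the MeHg lineage and 3.5% lower at an adjusted p under 0.05; among the 206 retina genes 24 rose and 22 fell. Without control libraries 5 and 7, 3.5% of genes were called higher and 4.4% lower, and among the 206 retina genes 15 rose and 32 fell. Of these, 15 higher and 21 lower calls were made in both fits and none had opposite signs. The lower calls of both fits include rho, which was listed at 0 in every MeHg library. Of the rest, 9 genes called higher with all libraries were not called without the pair, 1 lower call was lost and 11 lower calls were gained. The median MeHg minus control difference of the retina genes was 0.17 with all libraries and -0.06 without the pair.

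The 9 higher calls lost were the G protein subunits gngt1, gnb1a, gnb3a and gnb3b, the green opsin copy opn1mw4, the ON bipolar receptor grm6b, the kainate receptor grik1a, the glial regulator id2b and the melanin enzyme dct. For gngt1 the MeHg minus control difference was 1.06 (SE 0.27, adjusted p = 0.0297) with all libraries by limma. It was 0.73 (SE 0.30, adjusted p = 0.209) without control libraries 5 and 7. For gnb3b it was 1.24 (SE 0.27, adjusted p = 0.0128) with all libraries by limma, and 0.90 (SE 0.24, adjusted p = 0.055) without the pair. For gngt1 all 6 libraries, at 6152 to 8070.0 FPKM in the MeHg lineage (median 6589), lay above all 5 control libraries. For 2 other lost calls the difference changed little: grik1a stood at 0.53 (SE 0.15, adjusted p = 0.0445) by limma with all libraries and 0.56 (SE 0.17, adjusted p = 0.0781) without the pair, and opn1mw4 at 1.39 (SE 0.33, adjusted p = 0.021) by limma with all libraries and 1.27 (SE 0.43, adjusted p = 0.117) without the pair.

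The 11 lower calls gained were saga, slc24a2, SLC24A2, foxq2, impg2a, unc119a, rp1, rp1l1a, slc5a7a, cx52.6 and stra6. The first 8 belong to the rod, cone and shared photoreceptor lists. The rod arrestin saga ranged from 239 to 373 FPKM in the MeHg lineage (median 295), inside the range of control libraries 5 and 7 and below control libraries 3, 4 and 8. Its limma difference was -0.66 (SE 0.33, adjusted p = 0.245) with all libraries, and -1.20 (SE 0.23, adjusted p = 0.0119) without the pair. The connexin cx52.6 ranged from 13.2 to 21.2 FPKM in the MeHg lineage (median 17.99), and its limma difference was -0.94 (SE 0.29, adjusted p = 0.0678) with all libraries and -1.37 (SE 0.24, adjusted p = 0.00837) without the pair. For slc5a7a the limma difference was -0.51 (SE 0.33, adjusted p = 0.36) with all libraries and -1.09 (SE 0.20, adjusted p = 0.0114) without the pair. The genes saga, impg2a, cx52.6 and slc5a7a were named above for low values in the pair, so their adjusted p-values without it are not independent of that choice. The lower call that was lost was for cx52.7, at -1.27 (SE 0.35, adjusted p = 0.0422) by limma with all libraries and -1.57 (SE 0.42, adjusted p = 0.0526) without the pair.

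**Figure D5:**
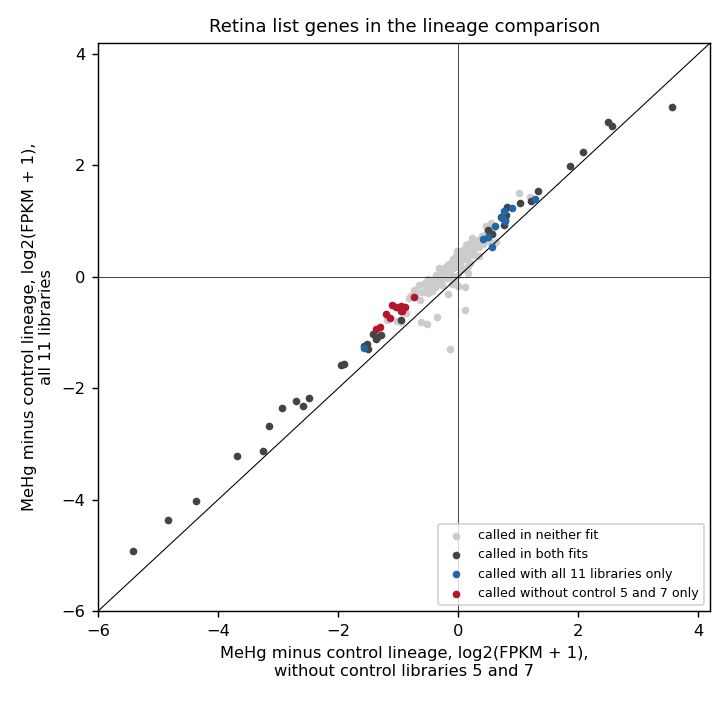
MeHg minus control lineage difference in log2(FPKM + 1) of the retina genes, without control libraries 5 and 7 (x axis) and with all 11 libraries (y axis); each point is a gene, rho is left out, and the diagonal marks equal values. Most points lie above the diagonal, blue points are the 9 higher calls and 1 lower call lost without the pair, and red points are the 11 lower calls gained.

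Other calls, 2 of which are given here, were made in both fits. The cone arrestin arr3a was lower in the MeHg lineage by limma at -4.37 (SE 0.30, adjusted p = 7.3e-06) with all libraries and at -4.83 (SE 0.20, adjusted p = 9e-06) without the pair. The red opsin opn1lw1 was higher at 2.23 (SE 0.32, adjusted p = 0.00096) by limma with all libraries and at 2.08 (SE 0.41, adjusted p = 0.0146) without the pair. By list, the 20 rod genes had 2 higher and 5 lower calls without the pair, against 4 and 4 with all libraries. The lower rod calls of both fits include rho. The 27 cone genes had 4 higher and 10 lower, against 6 and 7. The 29 shared photoreceptor genes had 4 higher and 6 lower calls without the pair, against 4 and 2 with all libraries, and the 24 bipolar genes 2 and 1, against 5 and 1. Amacrine, horizontal and ganglion genes had at most 1 call in each direction in either fit. Of 40 skeletal muscle and 26 skin genes, 1 muscle gene was called higher in both fits and 1 muscle gene lower with all libraries only, and no skin gene was called. Over all genes 3.5% were called higher and 4.4% lower without the pair, against 5.47% and 3.5% with all libraries. Beside these shares, lists with at most 1 call in a direction are not read as a result.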

How the data were processed

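Total RNA of adult F3 retinas was sequenced as paired reads of 100 bases, at 14 to 32 M reads each, per the labels' protocols. The submitters' processing notes name CASAVA 1.8.2, cutadapt, FastQC, TopHat and Cuffnorm and the build Zv9. The deposited tables hold FPKM per gene and, in a companion table, a signal per gene that the authors scaled between libraries (fragments divided by a library factor, from its values); 1 column without a name in each table was not used. Values came from the FPKM table, on the log2(FPKM + 1) scale, for genes averaging 0.5 FPKM or more over 11 libraries.

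Control libraries were split by zp3.2 above 100 or below 10 FPKM. Genes at least 20-fold higher in both libraries of the first set were left out of the description of that split, but not of the lineage comparison. That split was described and not tested. The lineage comparison was tested with limma 3.58.1 in R 4.3.3 with a mean-variance trend and Benjamini-Hochberg adjustment at 0.05, after a check on simulated data. Of 693 listed symbols, 587 matched a gene; copies in tandem arrays are uncertain. The sets and gene lists were chosen with earlier results of these data known. Genes named from a list are its first 2 members past the filter and up to 3 higher and 3 lower with the largest non-overlapping difference of at least 2-fold, and over all genes the 8 largest in each direction with a mean of at least 10 FPKM; others are said to be chosen after their values were seen. One gene that this rule names is not reported here. The precision of a library is limited by its implied fragments, and nothing says whether replicates came from separate fish beyond the design text's term biological replicate, so p-values measure the spread between these samples.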

Additional observations from a re-analysis of the deposited data

Results flagged for a closer look

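Of 191 sets of values examined (the named genes and list levels over the 5 control or the 6 MeHg libraries), 17 held 1 library far from the others of its lineage. The cutoff marks about 1 in 20 sets of normally distributed values. FPKM need not follow that distribution, so the 17 cannot be read against that rate. In the MeHg lineage, library 4 stood apart for the cell cycle list (level 0.93) and for aurkb (5.59 FPKM), mad2l1 (4.51), cdca7a (2.64) and kif23 (2.94). MeHg library 2 stood apart for the muscle genes pvalb3 (22.8 FPKM), mylpfa (143) and ckmb (149). MeHg library 7 stood apart for cnga1 (214 FPKM), rpe65a (147) and crybb2 (1.66), and MeHg library 3 for gbgt1l4 (3.86 FPKM). In the control lineage, library 8 stood apart for opn1mw3 (732 FPKM), lhx1a (5.13) and ccl19a.2 (25.7), and library 3 for rpe65a (1090 FPKM) and dct (124). All of these were the highest value of their lineage, and none of them was in control library 5 or 7. The check looks for 1 library alone, so that 2 libraries that stand apart together hide each other. It therefore says nothing on whether control libraries 5 and 7 stand apart as a pair.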

How the results depend on the processing

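The 10 retina list medians stayed below 0 and the muscle and skin medians above 0 under every alternative run. With rescaled FPKM the medians were -0.55 (rod), -0.40 (cone), -0.50 (shared photoreceptor), -0.11 (Muller glia), -0.27 (bipolar), -0.29 (amacrine), -0.22 (horizontal), -0.32 (ganglion), -0.23 (pigment epithelium), -0.13 (melanosome) and 1.28 (muscle), with 2537 genes higher and 136 lower over all genes. Centring gave -0.38 for Muller glia and 292 lower genes (84.7% of calls higher, against 65.8% as deposited and 94.9% rescaled). The companion table with TMM factors gave -0.41 for Muller glia, 1.53 for muscle and 2024 higher against 629 lower genes. A pseudocount of 0.1 gave 1.28 for muscle and 1631 higher against 1226 lower genes. A mean of at least 5 FPKM gave 1.29 for muscle and 504 higher against 503 lower genes (50.0% of calls higher). There the median of all genes kept was -0.27. Without control library 5, 45.9% of calls were higher, so the excess of higher calls did not hold in every setting. Leaving out 1 control library at a time, medians ran from -1.34 to -0.64 (rod), -1.23 to -0.45 (cone), -1.23 to -0.54 (shared photoreceptor), -0.62 to -0.49 (Muller glia), -0.98 to -0.44 (bipolar), -1.03 to -0.46 (amacrine), -0.79 to -0.34 (horizontal), -0.92 to -0.42 (ganglion), -0.69 to -0.35 (pigment epithelium), -0.60 to -0.20 (melanosome), 0.54 to 1.02 (muscle) and 0.17 to 1.199 (skin). The counts of genes ran from 1161 to 1828 (higher) and from 542 to 2154 (lower; 2154 without control library 5 and 1378 without control library 8). Of the 71 named genes 65 kept their sign in every setting, and onecut1, lhx1a, ba1, si:ch211-5k11.6, crybb2 and crybb3 did not. All 6 that changed were named as first listed members. Genes named for a non-overlapping difference in these same values keep their sign by construction when 1 library is left out. The count of 65 is therefore no support for them. Among the 367 cell type genes of the lineage comparison by limma, 30 were called higher and 23 lower (MeHg against control), 17 and 17 with no filter on low values, and 19 and 34 without control libraries 5 and 7. Over all 20320 genes 5.47% were called higher and 3.5% lower, and 3.5% and 4.4% without control libraries 5 and 7. Leaving out 1 library gave 19 to 34 higher (19 without control library 5) and 18 to 35 lower (35 without control library 7). With the replicate number as a block, 1 was higher and 8 lower, beside 93 higher and 66 lower over all 20320 genes. Over the 4 shared numbers the deviations correlated at -0.23 to -0.01. The labels do not say whether a number is shared between the lineages, and these few correlations cannot settle it. The planned edgeR and DESeq2 fits were not run, because the companion table is not whole fragment counts. The causes of these shifts were not tested. The lowest depth, 2838157 implied fragments in control library 8, limits genes under about 1 FPKM.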
